A study of Mus musculus with 8 samples.

Results

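The 4 genes described here, Nfia, Nfib, Nfic and Nfix, are the whole nuclear factor I (NFI) family of mouse transcription factors. They were chosen by symbol out of 23997 gene symbols in 6 RNA-seq libraries, and all 4 had a row in every library. The libraries came from neural stem/precursor cells (NS/PCs) of the telencephalon of ICR mouse embryos, taken at E11.5 according to the culture protocol and E11 according to the stage label. The cells were grown attached to coated dishes in medium that held bFGF at 10 ng/mL. Control cells gave 3 libraries and Nfia-transduced cells another 3, all from RNA taken 3 days after transduction. The labels name neither the vector, nor what the control cells received, nor how many embryos were pooled, nor whether the 3 libraries of a group were separate cultures. The p-values therefore rest on variation among libraries that may be technical in origin. The Flag ChIP and IgG ChIP samples of the series are not analysed here.

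NFI proteins bind DNA as dimers, formed by any pairing of the family, at a palindrome whose arms are TTGGC and its reverse complement GCCAA, or more weakly at a single arm. The part of the protein that binds DNA and pairs is conserved across the family, while the rest of the protein, which activates or represses transcription, varies more. In the embryonic brain Nfia, Nfib and Nfix act in radial glia, where they favour the change from neuron to glia production, and Nfic is best known from tooth and other non-neural tissues.

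The values are FPKM (fragments divided by transcript length and library size), so levels of different genes can be set side by side where the assumed length applies. Library totals were 474010 to 511700 FPKM. Relative depth, read from the steps between low values, was 0.760 to 1.11 of control 1, with Nfia 3 lowest, and absolute depth is not known. Over all genes tested, 16.1% were called higher with Nfia and 15.1% lower (limma adjusted p under 0.05). Of 8 markers of the labelled cells, 3 were called higher with Nfia (Nes, Vim and Notch1) and 3 lower (Pax6, Hes5 and Sox1). The most abundant were present in every library: Sox2, a stem cell factor, was 222 to 247 FPKM over the 6 libraries, and Nes, Vim and Fabp7 were all above 80 FPKM in each. The control libraries also held neuron RNA. The summed level of 8 neuron markers was 1355 to 1467 FPKM in control and 797 to 823 FPKM with Nfia, and 7 of the 8 were called lower. Microglia markers summed to 2.36 FPKM at most, and 0 of 6 passed the filter on low values. Markers of endothelium and mural cells were low but differed between the groups. Their sum was 6.62 to 9.25 FPKM in control and 3.99 to 5.13 FPKM with Nfia, and 2 of 3 tested were called lower (Cldn5 and Rgs5). The part of these marker differences in the values of the NFI genes was not tested. In bulk RNA, fewer cells of a type and less RNA per cell cannot be told apart.

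In control cells Nfib was the leading paralog. Nfib was 59.6, 65.9 and 65.4 FPKM in control 1, 2 and 3, above 87.3% of the 12537 genes tested (those with a mean of at least 1 FPKM). Nfia was next at 19.8, 23.9 and 22.2 FPKM, followed by Nfix at 12.8, 18.0 and 16.8 FPKM. Nfic was lowest at 4.89, 5.99 and 6.04 FPKM. The order Nfib, Nfia, Nfix, Nfic held in each control library. Nfib stood 2.75 to 3.01 times above Nfia and 10.8 to 12.2 times above Nfic within a library. Nfia and Nfix were the closest neighbours in this order, with a ratio of 1.32 to 1.55 within a library. Even so, the lowest control value of Nfia (19.8 FPKM) lay above the highest of Nfix (18.0 FPKM).

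The introduced gene came to the top of the order. In Nfia 1, 2 and 3, Nfia was 69.0, 85.6 and 103.5 FPKM, above Nfib in each, at a ratio of 1.18, 1.45 and 1.58. The remaining order, Nfib then Nfix then Nfic, was as in control. These values include both the endogenous and the introduced transcript and do not separate them. The length of the introduced transcript is not known, so its FPKM may not be on the scale of the other paralogs. The rank, ratios, sums and shares that include Nfia in these libraries carry this limit. The means were 22.0 ± 2.06 and 86.1 ± 17.2 FPKM (SD, n = 3), a ratio of 3.92. The log2 difference, on the log2(FPKM + 1) scale of all limma values here, was 1.91 (95% interval 1.56 to 2.25, limma adjusted p = 0.000413). Of the 12537 genes, 77 had a larger log2 difference, and 15 of those 77 were called higher.

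**Figure D1:**
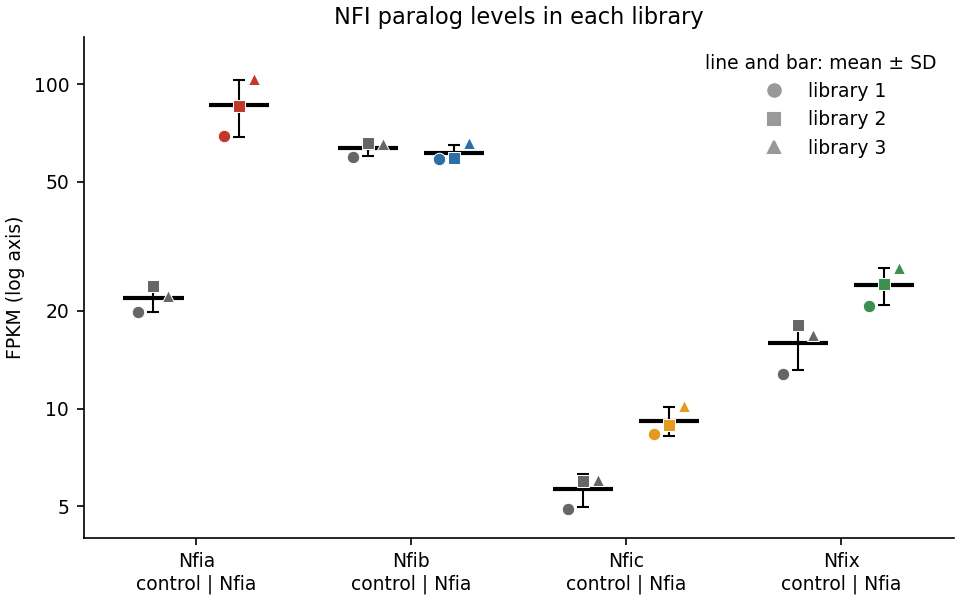
FPKM (log axis) of the 4 NFI paralogs in each library, control in grey on the left of each pair and Nfia-transduced in colour on the right, with the mean and SD of 3 libraries. Nfia, Nfic and Nfix have no overlap between groups, whereas the Nfib values of both groups lie between 58.7 and 65.9 FPKM.

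Nfic, the least abundant paralog, was higher in every Nfia library. It was 8.36, 8.91 and 10.2 FPKM in Nfia 1, 2 and 3, against a highest control value of 6.04 FPKM. The means were 5.64 ± 0.652 and 9.16 ± 0.955 FPKM (SD, n = 3), a ratio of 1.62. The log2 difference was 0.61 (95% interval 0.38 to 0.85, limma adjusted p = 0.00512). It was exceeded by 3.75% of the genes tested. The gene spans bases 81396191 to 81431919 of chromosome 10 (RefSeq GRCm38.p6). The adjusted p stayed between 0.0132 and 0.0245 when any 1 library was left out.

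Nfix, which regulates stem cell quiescence and maturation in the brain, was also higher in every Nfia library. It was 20.8, 24.1 and 27.0 FPKM in Nfia 1, 2 and 3, against a highest control value of 18.0 FPKM. The means were 15.9 ± 2.76 and 24.0 ± 3.15 FPKM (SD, n = 3), a ratio of 1.51. The log2 difference was 0.57 (95% interval 0.23 to 0.91, limma adjusted p = 0.0228). Its call is less firm than that of Nfic, because leaving out control 3, Nfia 2 or Nfia 3 took the adjusted p to 0.0552, 0.0781 or 0.0776. With the filter on low values applied anew to the 5 libraries left, the adjusted p was 0.0485, 0.0679 and 0.0616 in the same 3 cases. Nfix spans bases 84704712 to 84801238 of chromosome 8.

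Nfib, the most abundant paralog in control and a factor of callosal and hippocampal development, did not pass the test. It was 58.7, 59.2 and 65.6 FPKM in Nfia 1, 2 and 3, inside or just below the control range. The log2 difference was -0.06 with a 95% interval of -0.21 to 0.09 (limma adjusted p = 0.534), so the interval holds no rise of the size fitted for Nfic or Nfix. Nfib lies on chromosome 4 from 82290173 to 82506751, on the same chromosome as Nfia (97578066 to 98118876).

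All 4 paralogs passed the filter, and 3 of them were called higher and 0 lower. At an adjusted p under 0.05, 31.3% of all genes tested were called, 16.1% higher and 15.1% lower. The same 3 paralogs had every Nfia library above every control library, as did 24.7% of all genes tested. Nfia, one of these 3, is the gene named in the transduction label.

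Promoter windows of the paralogs that rose without being introduced are shown because the paralogs share a binding sequence. The RefSeq promoter table (build GRCm38.p6) matched 3 of the 4 members, with 1 start for Nfia, 1 for Nfic and 4 for Nfix. Each sequence is the 250 bases before the start, on the strand of the gene, 5′ to 3′. Every window lies inside the span given above for its gene. None is thus the promoter at the outermost 5′ end of that span. Capitals mark TTGGC, the core of the NFI site, on either strand (GCCAA on the other).
Nfic, chr10:81427174-81427423, minus strand: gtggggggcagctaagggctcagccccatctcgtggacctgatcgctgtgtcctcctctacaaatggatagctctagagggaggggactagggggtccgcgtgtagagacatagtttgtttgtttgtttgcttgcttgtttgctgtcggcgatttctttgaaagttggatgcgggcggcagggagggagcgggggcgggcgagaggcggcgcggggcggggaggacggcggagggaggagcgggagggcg
Nfix, the start furthest upstream of the 4 in the table, chr8:84780083-84780332, minus strand: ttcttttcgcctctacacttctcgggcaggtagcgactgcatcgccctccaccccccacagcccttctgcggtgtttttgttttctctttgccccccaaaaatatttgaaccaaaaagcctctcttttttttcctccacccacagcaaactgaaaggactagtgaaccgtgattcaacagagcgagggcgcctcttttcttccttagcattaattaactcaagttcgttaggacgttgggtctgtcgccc
Nfix, the next start, chr8:84775829-84776078, minus strand: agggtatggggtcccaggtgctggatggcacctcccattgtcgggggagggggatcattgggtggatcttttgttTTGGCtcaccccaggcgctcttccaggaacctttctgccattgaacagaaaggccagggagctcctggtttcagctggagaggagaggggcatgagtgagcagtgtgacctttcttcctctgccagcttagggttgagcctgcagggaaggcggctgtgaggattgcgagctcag
The windows of Nfia, Nfic, the furthest upstream Nfix start and the third Nfix start held 0 matches. The next Nfix start held 1, whose first base lies 175 bases before the start. The last Nfix start (window chr8:84772876-84773125, minus strand) held 1 at its very end, here with the 30 bases that lead up to the start.
Nfix, the last start, chr8:84772876-84772905, minus strand: tggcattttctggcttctgggggcaGCCAA
Of all 32851 windows of this length in the table, 41.5% held TTGGC on either strand, so these matches are common. The full palindrome, TTGGC and GCCAA with 5 bases of any kind between them, was in 0 of the member windows and in 12 of all 32851. A match describes letters and shows no binding, and the absence of a match says nothing of sites elsewhere.

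The composition of the NFI pool differed between the groups in its Nfia and Nfib parts. The summed FPKM of the 4 paralogs was 97.1, 113.8 and 110.5 in the control libraries and 156.9, 177.8 and 206.4 in the Nfia libraries, a ratio of means of 1.68. Of this increase Nfia held 87.5%, Nfic 4.80% and Nfib -3.31%, with Nfix the rest (8.09 of 73.3 FPKM). Nfia made up 20.4%, 21.0% and 20.1% of the total in control and 44.0%, 48.1% and 50.1% in Nfia 1, 2 and 3. Nfib made up 61.4%, 57.9% and 59.2% in control and 37.4%, 33.3% and 31.8% with Nfia. The shares of both genes thus had no overlap between groups, Nfia above and Nfib below.

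The shares of Nfic and Nfix overlapped between groups although their levels did not. Nfic held 5.26 ± 0.217% of the NFI total in control and 5.09 ± 0.203% with Nfia (SD, n = 3). Nfix held 14.8 ± 1.41% and 13.3 ± 0.243%. Their own ratios of means, 1.62 and 1.51, were close to the 1.68 of the total. Share values do not depend on how a library is scaled, since every paralog of a library is divided by the same sum.

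**Figure D2:**
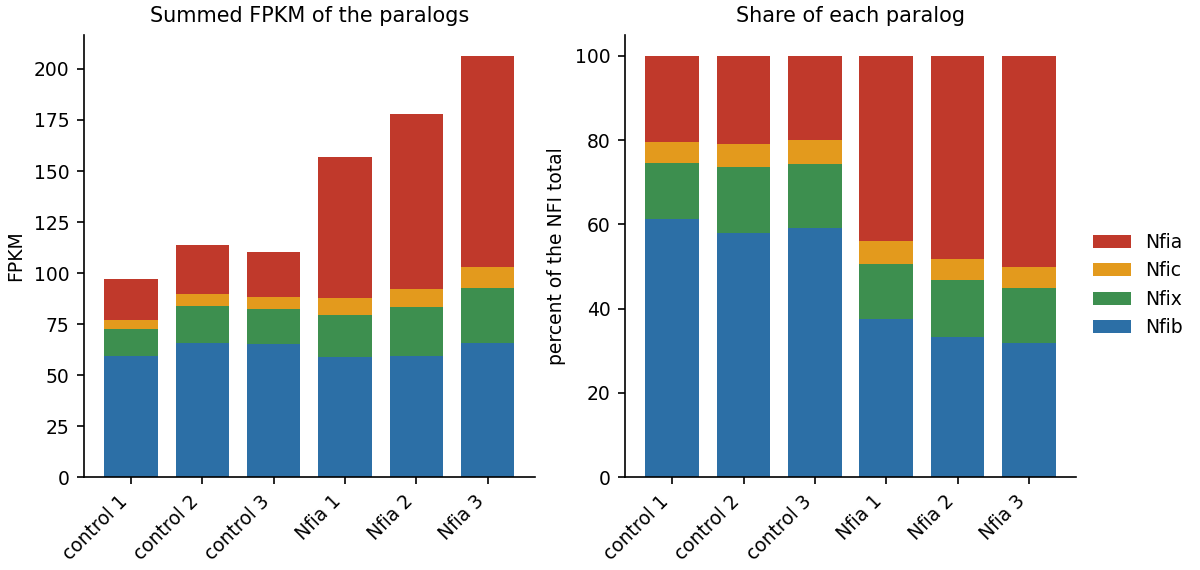
Summed FPKM of the 4 NFI paralogs in each library (left) and the percent of that sum held by each paralog (right), 1 stacked bar per library. The Nfia segment goes from 20.1% to 21.0% in control to 44.0% to 50.1% with Nfia, and the Nfib segment from 57.9% to 61.4% down to 31.8% to 37.4%.

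With Nfia set aside, the other 3 paralogs summed to 77.3, 89.9 and 88.3 FPKM in control and 87.9, 92.2 and 102.9 FPKM with Nfia, and these ranges overlapped. Within that sum Nfib fell from 74.8 ± 2.04% to 64.9 ± 1.67% (SD, n = 3) with no overlap between groups. Nfic went from 6.61 ± 0.262% to 9.70 ± 0.211% and Nfix from 18.6 ± 1.82% to 25.4 ± 1.50%, each with every Nfia library above every control library. In these libraries the Nfib part of this sum was thus smaller with Nfia, and the Nfic and Nfix parts were larger. These shares follow from the levels of the single genes given above and add no separate support. How often other sets of 3 genes differ in this way was not counted.

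Ratios between paralogs in the same library were compared for all 6 pairs, since such a ratio cancels the scaling of the library. Nfic relative to Nfib was 0.0820, 0.0909 and 0.0924 in control and 0.142, 0.150 and 0.156 with Nfia. On the scale of log2 of the plain FPKM ratio, with no pseudocount, Nfib/Nfic fell by 0.76 and Nfib/Nfix by 0.66, with no overlap between groups in either pair. Nfic/Nfix was -1.49 ± 0.10 in control and -1.39 ± 0.07 with Nfia (SD, n = 3), and its groups overlapped (difference 0.10, exact permutation p = 0.3). With 3 against 3 libraries this test cannot decide whether this ratio differed. The 3 pairs with Nfia differed by 2.01 (Nfia/Nfib), 1.25 (Nfia/Nfic) and 1.35 (Nfia/Nfix), all without overlap. Each of the 5 pairs without overlap had an exact two-sided permutation p of 0.1, the smallest that 3 against 3 libraries can give. It was 0.12 after Benjamini-Hochberg adjustment over the 6 pairs, so no pair could pass 0.05. The share of other gene pairs whose ratios have no overlap between groups was not counted.

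**Figure D3:**
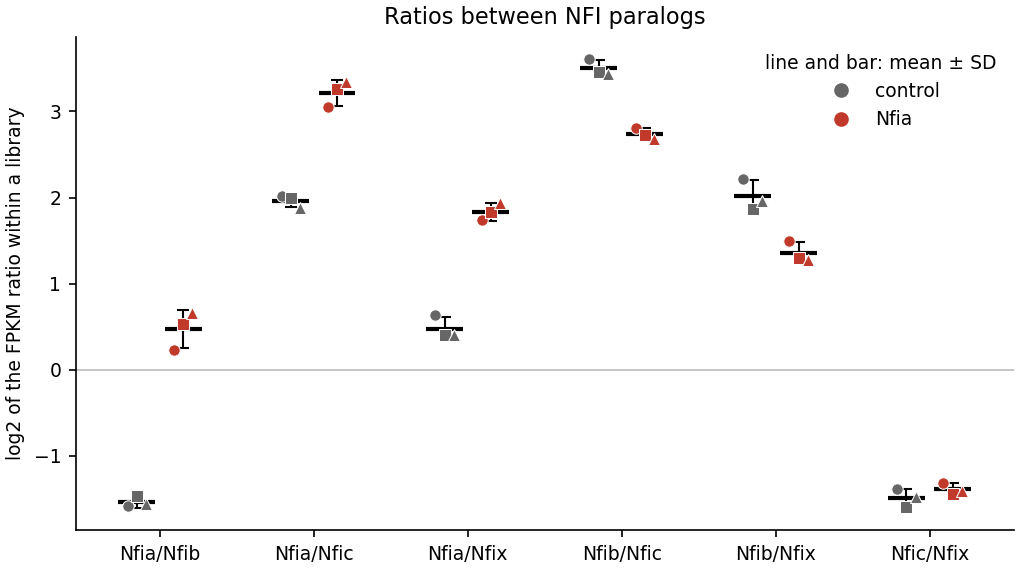
Log2 of the FPKM ratio of each pair of NFI paralogs within a library, control in grey and Nfia-transduced in red, with the mean and SD of 3 libraries (circle, square and triangle are libraries 1, 2 and 3). The groups are apart in 5 pairs and overlap in Nfic/Nfix.

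All 4 paralogs had their lowest value in the same library of each group. Control 1 had the lowest value of its group for each of the 4, from 80.4% of the group mean for Nfix to 93.7% for Nfib. Nfia 1 had the lowest value of its group for each of the 4 as well, from 80.2% for Nfia to 96.0% for Nfib, and Nfia 3 the highest. The share of all genes tested that do the same was not counted. The pattern is therefore not shown to be particular to the NFI genes. Notch1 and Olig2 were also lowest in control 1 and Nfia 1, whereas Fabp7 was highest in both. Nfix spread most in control (SD 0.26 on the log2 FPKM scale, with no pseudocount) and Nfib least (0.08). Part of this spread was shared, since the SD of Nfib/Nfic in control was 0.09 where that of Nfic alone was 0.17.

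Markers of fibroblasts and meninges were low in the same libraries numbered 1. The summed level of Col1a1, Col1a2, Dcn, Lum and Col3a1 came to 4.64 FPKM for control 1 and 3.78 FPKM for Nfia 1, against 13.0 to 15.1 FPKM in the other 4 libraries. All 5 markers were tested, 0 were called higher or lower, and their ranges overlapped between the groups. Without control 1 and Nfia 1, Nfic had a log2 difference of 0.59 (limma adjusted p = 0.0296) and Nfix of 0.53 (adjusted p = 0.0283). Both calls thus held, in fits chosen after seeing the data. The log2 difference of Nfia was then 1.99 and that of Nfib -0.07 (adjusted p = 0.00728 and 0.472).

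**Figure D4:**
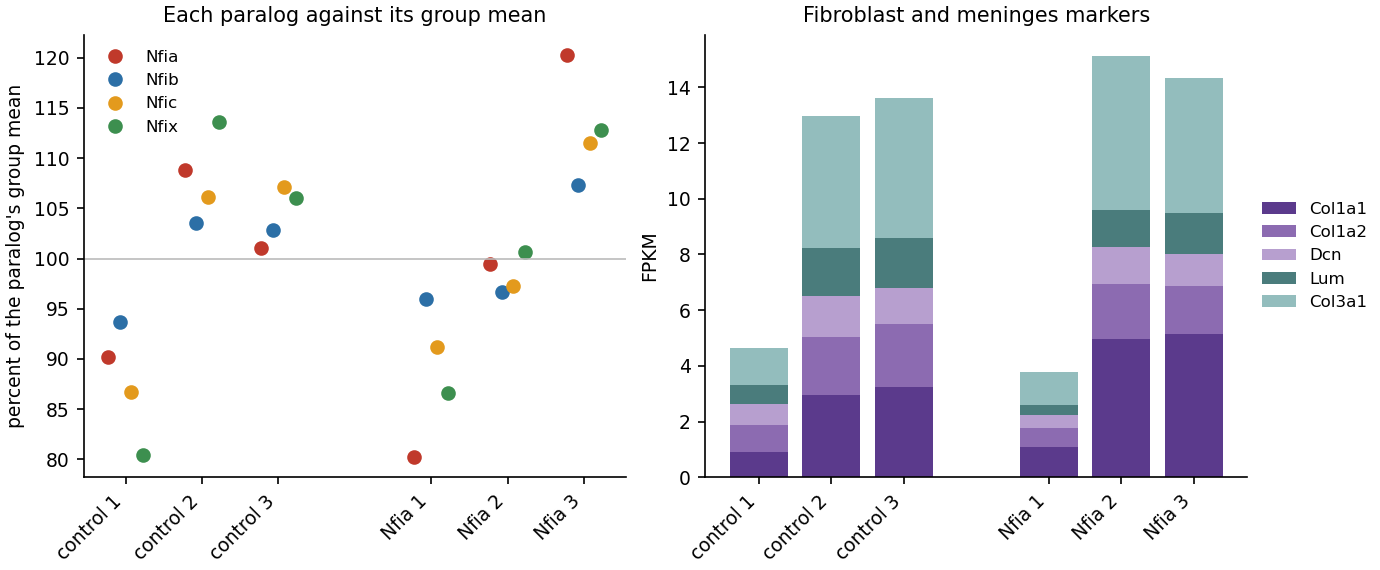
Each paralog in each library as a percent of its group mean (left) and the stacked FPKM of 5 fibroblast and meninges markers in the same libraries (right). Control 1 and Nfia 1 are below their group mean for all 4 paralogs and have marker sums of 4.64 and 3.78 FPKM.

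Genes at the NFI loci were read for comparison. The nearest genes with a row lay at unlike distances, from 1.11 kb (Smim24, from Nfic) to 791 kb (Gm12695, from Nfia). Tm2d1 lay 236 kb from Nfia, Zdhhc21 292 kb from Nfib and Celf5 27.3 kb from Nfic. Trmt1 and Dand5 lay 4.90 and 14.2 kb from Nfix. E130114P18Rik, a long noncoding RNA that overlaps the 5′ end of Nfia (chromosome 4, 97567875 to 97584591), was 30.0, 30.6 and 27.6 FPKM in control and 28.7, 26.7 and 22.9 FPKM with Nfia. It did not pass the test (log2 difference -0.17, limma adjusted p = 0.182), so the rise at the Nfia symbol was not seen at this overlapping symbol. Use of strand in the authors' counting is not given in the sources used here, so reads of overlapping genes may be shared. Tm2d1, the nearest gene with a row after Nfia, was 18.0 ± 1.72 and 17.7 ± 0.80 FPKM (SD, n = 3).

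Beside Nfib, the palmitoyltransferase gene Zdhhc21 rose from 12.5 ± 0.502 to 15.1 ± 0.610 FPKM (limma adjusted p = 0.0108 for a log2 difference of 0.26), while Nfib did not pass. Beside Nfic, the neuronal RNA-binding protein gene Celf5 fell from 30.4 ± 2.76 to 20.3 ± 2.34 FPKM (adjusted p = 0.00643 for a log2 difference of -0.56), opposite to Nfic. Beside Nfix, the tRNA methyltransferase gene Trmt1 was 29.7 ± 0.591 and 30.9 ± 0.682 FPKM and the secreted antagonist gene Dand5 was 2.88 ± 0.589 and 1.80 ± 0.417 FPKM, and neither passed (adjusted p = 0.311 and 0.0581). Dand5 did pass as lower with library quality weights, a robust variance trend or Nfia 3 left out (adjusted p = 0.0351, 0.0259 and 0.0445). Lyl1, which overlaps the edge of Nfix, and the neighbours Gm12695, Gm5860 and Smim24 were below the filter, and Mir1191b, inside Nfic, was listed at 0 in all 6 libraries.

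The genes whose profile over the 6 libraries was most like that of each paralog were found by the root mean square difference of log2(FPKM + 1), each profile centred on its control mean, among 11523 genes. For Nfia they were Npnt, an extracellular matrix gene (difference 0.10), Rap1gap, a regulator of Rap GTPases (0.11), and Slco1c1, a thyroid hormone transporter gene (0.12). Npnt was the single gene closer than 0.1. All 3 were called higher, but they were picked by likeness to Nfia in these same libraries, so the calls add no support. Npnt had a control mean of 0.908 FPKM and an Nfia mean of 6.57 FPKM, so it passed the filter through its Nfia libraries. Its ratio of means was 7.23 against 3.92 for Nfia, and the likeness rests on the log2(FPKM + 1) scale. For Nfic they were Abtb2, the transcription factor gene Zbtb7b and the glutathione transferase gene Gstm1 (0.04, 0.04 and 0.05), with 96 genes closer than 0.1. For Nfix they were Ahdc1, the stress-linked factor gene Creb3l1 and the adhesion gene Sdk2 (0.05 each), with 32 genes closer than 0.1. Nfib had 1877 genes closer than 0.1, led by H13, Cnnm4 and Ascc2. Gstm1 belongs to a family of near-identical genes, and its FPKM is uncertain because reads may be divided among them. The calls of Ahdc1 and Sdk2 ended without Nfia 2 or Nfia 3, and that of Creb3l1 without control 1, control 3, Nfia 2 or Nfia 3.

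Regulators reported upstream of NFI genes went both ways. Of 6 tested, 1 was called higher and 3 lower, where 16.1% and 15.1% of all genes tested were. The median log2 difference was -0.12 against 0.01 over all genes tested. Notch1, the receptor whose signal induces Nfia in precursor cells, was 15.5, 18.9 and 17.7 FPKM in control and 33.5, 33.7 and 40.6 FPKM with Nfia (log2 difference 1.01, SE 0.10, limma adjusted p = 0.000838). Rbpj, the DNA-binding partner of activated Notch, averaged 20.7 ± 0.418 FPKM in control and fell to 17.8 ± 1.14 FPKM (adjusted p = 0.0271 for a log2 difference of -0.21). Sox9, which induces Nfia in the spinal cord and then acts with it, averaged 59.8 ± 4.66 FPKM and fell to 51.0 ± 1.76 FPKM (adjusted p = 0.0362 for a log2 difference of -0.22). Pax6, a dorsal radial glia factor, fell by 0.65 on the log2 scale (adjusted p = 0.00101). Notch2 and Pou3f2 did not pass (log2 differences 0.21 and -0.03). The call of Sox9 ended without control 2, control 3 or any 1 Nfia library and under the replicate block (adjusted p = 0.0531). It also ended with no filter on low values and with no variance trend. That of Rbpj ended without any 1 control library, Nfia 2 or Nfia 3, leaving Pax6 as the 1 lower regulator when control 2, control 3, Nfia 2 or Nfia 3 was left out.

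Partners and antagonists of NFI proteins included Olig2, the largest log2 difference among the 4 lists. Of 9 tested, 3 were called higher and 2 lower (median log2 difference 0.05), beside 16.1% and 15.1% over all genes. This factor of oligodendrocyte and ventral progenitors, which opposes astrocyte genes, was 126, 145 and 138 FPKM in control and 362, 367 and 391 FPKM with Nfia (log2 difference 1.45, limma adjusted p = 0.00011). Among 7 markers of the oligodendrocyte lineage, Olig1 and Olig2 were called higher and Pdgfra and Mbp lower. Stat3, the transducer of astrocyte-inducing cytokines, rose from 20.7 ± 2.45 to 29.1 ± 1.64 FPKM (log2 difference 0.48). Dnmt1, the maintenance DNA methyltransferase, rose from 66.0 ± 3.99 to 82.5 ± 2.32 FPKM (log2 difference 0.32). The lower members were Sox9 and the LIM homeobox gene Lhx2 (log2 difference -0.15, adjusted p = 0.0432), whose adjusted p was 0.0581 to 0.107 with each library left out in turn. No partner was called lower by limma in the fits that left out control 2, control 3 or any 1 Nfia library, and 1 was in the fit that left out control 1. Runx2 was below the filter.

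Genes reported to respond to NFI proteins in neural cells also split. Of 12 tested, 4 were called higher and 6 lower (median log2 difference -0.23), where 16.1% and 15.1% of all genes were. Apcdd1, a Wnt inhibitor gene known as a joint target of Sox9 and Nfia, was 16.0, 17.5 and 18.3 FPKM in control and 8.17, 8.09 and 8.18 FPKM with Nfia (log2 difference -0.99, SE 0.06, limma adjusted p = 0.000179). Zcchc24, from the same group of joint targets, rose from 22.7 ± 1.16 to 38.8 ± 1.08 FPKM (adjusted p = 0.000293 for a log2 difference of 0.75). Slc1a3, the glial glutamate transporter GLAST, rose from 56.5 ± 2.75 to 85.3 ± 1.75 FPKM (log2 difference 0.59). Hes1, a Notch effector that NFI factors are reported to repress, rose from 21.9 ± 1.55 to 32.1 ± 2.32 FPKM (adjusted p = 0.00265 for a log2 difference of 0.53). Bbx rose by a log2 difference of 0.26, a call that ended without control 1, 2 or 3, Nfia 2 or Nfia 3 (adjusted p = 0.068 to 0.133). It also ended at a mean of at least 5 FPKM, with no filter and under upper-quartile scaling (adjusted p = 0.0506, 0.0769 and 0.073). Efnb1, an ephrin ligand reported as an NFI target in granule neurons, fell from 42.1 ± 1.50 to 28.8 ± 1.26 FPKM (log2 difference -0.53). Ezh2, a Polycomb methyltransferase reported to be repressed by Nfib, did not pass (120 ± 6.71 and 115 ± 2.18 FPKM). Mmd2, another joint target, averaged 16.5 ± 0.521 FPKM in control and fell to 11.2 ± 0.688 FPKM (log2 difference -0.52). The adhesion genes Cdh2 and Cntn2 fell by 0.24 and 0.33 on the log2 scale. Gfap, the intermediate filament gene of astrocytes, was 2.12, 2.64 and 2.31 FPKM in control and 1.55, 1.59 and 0.977 FPKM with Nfia, lower in every Nfia library (limma adjusted p = 0.0308). Of 6 astrocyte markers 3 could be tested, and Gfap and Aldh1l1 were called lower. The call of Gfap ended without any 1 control library (adjusted p = 0.0506 to 0.0856), and that of Cntn2 without any 1 control library, Nfia 1 or Nfia 2 (adjusted p = 0.0517 to 0.0716) and under the replicate block (adjusted p = 0.0512). Insc and Gabra6 were below the filter. The list was drawn up with earlier results of these data known, and its counts are a description. The drop of the neuron markers given above moved with the same libraries, and its part in these values was not tested.

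Other factors named for the CCAAT box, the sequence for which NFI proteins were once also named, were compared as a set from outside the NFI family. Of 8 tested, 2 were called higher and 0 lower (median log2 difference 0.14), where 16.1% and 15.1% of all genes tested were. They were Cebpz, from 22.5 ± 0.837 to 27.4 ± 0.666 FPKM (limma adjusted p = 0.00518 for a log2 difference of 0.27), and Cebpb, from 4.18 ± 0.873 to 6.01 ± 0.527 FPKM (adjusted p = 0.0384 for a log2 difference of 0.45). Every Nfia library was above every control library for 5 of the 8 and below for 2, beside 24.7% and 22.9% of all genes tested. The call of Cebpb ended without control 1 or 2 or any 1 Nfia library and under the replicate block. It also ended at a mean of at least 5 FPKM, with no filter and under upper-quartile scaling (adjusted p = 0.0543, 0.0726 and 0.0531). With control 2 or any 1 Nfia library left out, 1 factor of the list was higher. Cebpg and Cebpa did not pass (adjusted p = 0.0676 and 0.0778), though Cebpa did with no variance trend and under quantile normalization (adjusted p = 0.0413 and 0.0497). Under upper-quartile scaling 1 of the 8 was higher and 2 were lower.

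**Figure D5:**
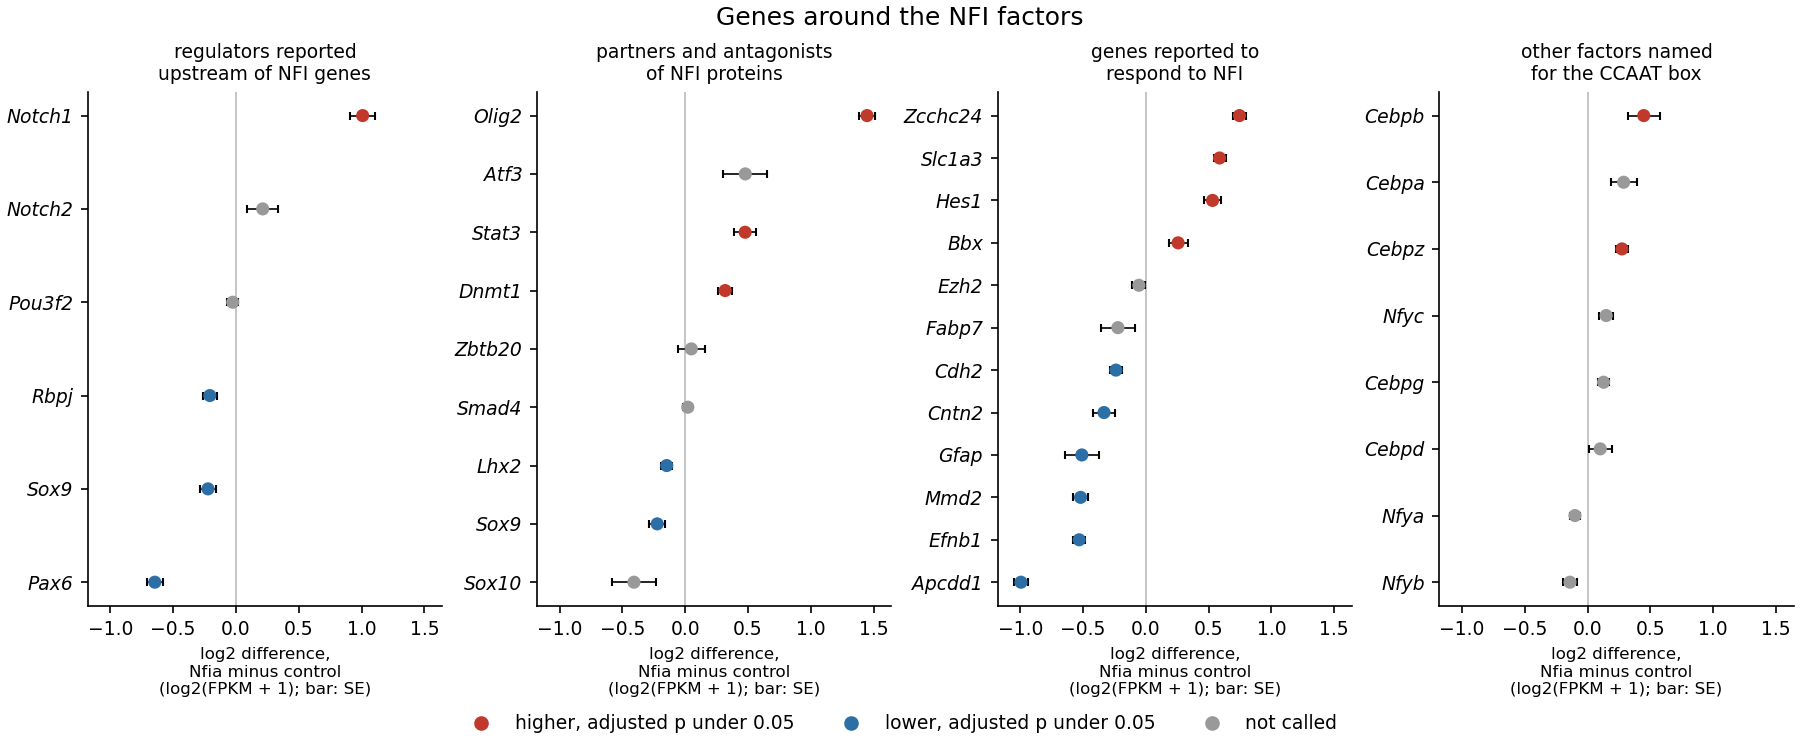
Log2 differences (Nfia minus control, log2(FPKM + 1) scale, bar SE) of the tested genes of 4 lists around the NFI factors, with genes called higher in red, lower in blue and others in grey. Values run from -0.99 for Apcdd1 to 1.45 for Olig2, and each of the first 3 lists holds calls in both directions.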

How the data were processed

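RNA-seq libraries labelled control (3) and Nfia-transduced (3) were analysed. Per the labels' protocols, poly(A) RNA went into a directional library kit. The authors deposited 1 FPKM value per gene symbol and library. No header states the unit, which follows from the tools and the range of the values. The submitters' processing notes name TopHat, Bowtie 1, SAMtools, Cufflinks, Cuffdiff, MACS 1.4 and mm10, with no role or order. The sources used here give no annotation, strand setting or rule for reads that match several paralogs, and no read counts were used. The members and lists were chosen with earlier results of these data known.

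Values were used as deposited. The 12537 genes whose mean over the 6 libraries reached 1 FPKM were tested on log2(FPKM + 1) with limma 3.58.1 in R 4.3.3 (variance trend, two-sided, Benjamini-Hochberg over all genes tested, adjusted p under 0.05), a step tested on simulated data. This scale understates changes of low genes. Ratios within a library used an exact permutation test (SciPy 1.17.1). Named are the 4 members, up to 4 genes of each list by adjusted p, each gene that a count of 5 or fewer rests on, the 3 genes closest in profile to each member, and nearest or overlapping genes. Cell type markers are named besides, outside this rule. Markers that are in no other list were not followed through the alternatives. Mmd2, Gfap, Cntn2, Cdh2, Ezh2, Notch2, Pou3f2, Runx2, Insc and Gabra6 were named after their values were seen. Alternatives changed the pseudocount, filter, scaling, variance model, weights and block, or left out a library. Promoter sequences and positions are from RefSeq tables of GRCm38.p6. A comparison of the proteins was planned and is not reported here.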

Additional observations from a re-analysis of the deposited data

How the results depend on the processing

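The direction of all 4 paralogs and the calls of Nfia and Nfic held under the 10 alternatives of pseudocount, filter, scaling, variance model, weights and block, and without each library (Nfic log2 difference 0.58 to 0.69, and 0.53 to 0.67 without 1 library; Nfia 1.87 to 1.95, and 1.77 to 2.05). Nfib did not pass in any of these (-0.11 to -0.03 without 1 library). Nfix kept its call under the 10 alternatives (adjusted p up to 0.0428). Without 1 library its log2 difference was 0.43 to 0.67 and its adjusted p up to 0.0781. With the filter applied anew, an alternative chosen after seeing the data, it was 0.56 without Nfia 2 and 0.48 without Nfia 3, both not passing. Without control 1 and Nfia 1 together, also chosen after seeing the data, it passed.

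Over all genes, leaving out 1 library gave 1290 to 1625 genes higher and 1251 to 1572 lower, lowest without Nfia 2. Of the upstream regulators 1 to 2 were then lower, and 2 were lower with no filter, with no variance trend and under the replicate block. Of the partners 3 were higher without 1 library, or 4 without Nfia 1, and 4 with library quality weights, the replicate block or a robust trend. Without 1 library 0 to 1 partners were lower. At a mean of at least 5 FPKM, with no filter, under quantile normalization, the replicate block and a robust trend 1 partner was lower. With no variance trend 0 were. Of the CCAAT box factors 1 to 2 were higher without 1 library, and 1 was higher at a mean of at least 5 FPKM, with no filter, under the replicate block and with upper-quartile scaling, which also gave 2 lower. With library quality weights, no variance trend or quantile normalization 3 were higher. Of the responders 3 to 4 were higher and 4 to 6 lower over all these settings. Tm2d1, not called in any setting, changed sign with quality weights (log2 difference 0.014) and ranged from -0.059 to 0.054 without 1 library. The cause of these changes was not tested.

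Whether same-numbered libraries share a preparation is not known: the labels do not say so, and over all genes their deviations from the group means correlated at 0.03, -0.01 and 0.05, so the numbers were not used as pairs. Both libraries numbered 1 were nevertheless low in the 4 paralogs and in fibroblast markers, and the block took the SE of Nfix from 0.141 to 0.0674. With the replicate number as a block, Nfia, Nfic and Nfix passed (adjusted p = 0.00151, 0.0047 and 0.00653), Nfib did not (0.402), and 2130 genes were higher and 1916 lower. Read depth is not known, so counting error could not be given for the low values of Nfic.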
